A study of Mus musculus with 14 samples.

Results

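The connexins described here were the 4 gap junction genes Gja1, Gjb2, Gjb5 and Gjb6, followed in mouse corneas with and without the transcription factor Klf5. Members were all probe sets whose only gene symbol was one of these 4. These came to 9 of the 45101 probe sets of an Affymetrix mouse expression array, of which 6 read Gja1 and 1 each read Gjb2, Gjb5 and Gjb6, and to 4 of 18194 named genes. All 9 passed the filter on low values used for testing, a signal above 20 on at least 3 arrays.

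Corneas were taken from Klf5CN mice and their controls at postnatal day 11 (PN11) and postnatal day 56 (PN56), that is, shortly before eyelid opening and in the young adult. Klf5CN mice carried floxed Klf5 on both chromosomes together with 1 copy of the Le-Cre transgene (Klf5 loxP/loxP, Le-Cre/-), and the controls, called WT, carried the same floxed alleles without Le-Cre (Klf5 loxP/loxP). The background was mixed in all groups. There were 3 WT and 3 Klf5CN mice at PN11 and 4 WT and 4 Klf5CN mice at PN56, and each array held the RNA of both corneas of 1 mouse. Le-Cre acts in the ectoderm of the ocular surface and its derivatives, so that stromal and endothelial cells of the Klf5CN cornea kept their Klf5 alleles, and the effect of losing Klf5 cannot be told apart from an effect of Cre itself because no group carried Le-Cre alone. Whole corneas were measured, so fewer cells of a type and less RNA per cell cannot be told apart.

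Connexins are membrane proteins that assemble into rings, and rings of adjoining cells dock to form the channels of gap junctions, through which ions, second messengers and small metabolites pass. The cornea has no blood vessels, and its epithelial cells, keratocytes and endothelial cells are each coupled by such channels. Gja1 encodes Cx43, the most widely expressed connexin, found in basal epithelium, stroma and endothelium of the cornea. Gjb2 and Gjb6 encode Cx26 and Cx30, neighbours on chromosome 14 that can share a channel and whose human counterparts are known from hereditary deafness and skin disease. Gjb5 encodes a connexin of stratified epithelia such as the epidermis. Klf5 is a Krüppel-like zinc finger factor of proliferating epithelia that binds GC-rich and CACCC-type DNA.

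Correlations between replicates ran from 0.939 to 0.985 over the 29416 probe sets that passed the filter, and all arrays had been scaled to the same trimmed mean of 150. Shares of all probe sets given below are of these 29416 unless another number is named. The 3' over 5' control ratio of Actb was between 0.23 and 0.47 (log2) on 12 arrays but 1.62 on PN11 Klf5CN replicate 3 and 1.4 on PN56 Klf5CN replicate 4. The corresponding Gapdh ratio was 6.18 and 0.65 on those arrays, against -0.54 to -0.24 on the other 12. It differed between the PN56 genotypes by 0.40 (exact permutation test, two-sided, p = 0.0286, the smallest that 4 against 4 allows). Between the PN11 genotypes the Actb ratio differed by 0.51 (exact permutation test, two-sided, p = 0.1, the smallest that 3 against 3 allows). The PN11 Gapdh ratio differed by 2.29 (exact permutation test, two-sided, p = 0.1). Replicates 1 and 2 of PN11 Klf5CN were also above all PN11 WT arrays. Their Actb ratios were 0.35 and 0.31 against 0.23 to 0.27, and their Gapdh ratios -0.32 and -0.39 against -0.51 to -0.43. Results are therefore also given without PN11 Klf5CN replicate 3 and PN56 Klf5CN replicate 4, which was decided after seeing the data. The targeted gene followed its labels: Klf5 probe set 1430255_at was between 480.3 and 1510.5 on the WT arrays and between 6.9 and 70.3 on the Klf5CN arrays. Its probe set 1451739_at differed less, with group means of 8.34 (WT) and 7.51 (Klf5CN) at PN11 and 9.45 and 9.11 at PN56 (log2).

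Gjb5 was the connexin that differed most clearly between genotypes. Its signal in PN11 WT corneas was 118.5, 105.9 and 92.8, and in PN11 Klf5CN corneas 37.8, 33.4 and 41. The PN56 WT arrays gave 243.1, 201.8, 234.6 and 199.5, and the PN56 Klf5CN arrays 115.1, 95.6, 185.1 and 152.7. At both ages every Klf5CN array was below every WT array, as on 14% of all probe sets at PN11 and 8.84% at PN56. In both genotypes every PN56 array was above every PN11 array, as on 26.7% of all probe sets in WT and 19.7% in Klf5CN corneas.

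At PN11, Gjb5 was 2.82-fold lower in Klf5CN corneas, from a mean of 106 ± 12.8 (SD, n = 3) to 37.4 ± 3.8 (SD, n = 3). The log2 difference was -1.50 (SE 0.22, 95% interval -1.97 to -1.03), with an adjusted p of 0.00126 by limma over all 29416 probe sets tested. For a call, the adjusted p had to be below 0.05 and the change over 2-fold, and 1.16% of all probe sets were called lower in this comparison. Gjb5 kept its call under all 26 alternatives tried, with log2 differences from -1.59 to -1.19. Some of these could hardly change it. Leaving out a PN56 array left the difference itself at -1.50, and dropping the minimum fold could not remove a call. With the Actb ratio as a covariate the difference was -1.59 (adjusted p = 0.00208).

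At PN56 the means were 220 ± 22.4 (SD, n = 4) in WT and 137 ± 39.8 (SD, n = 4) in Klf5CN corneas. The log2 difference of -0.72 (SE 0.19, 95% interval -1.13 to -0.32) had an adjusted p of 0.0187 but stayed short of 2-fold, so it was not called. Of all tested probe sets, 15.3% had an adjusted p below 0.05 here with no minimum fold. PN56 Klf5CN replicate 3 had the highest Gjb5 signal of its group and the lowest sums of leukocyte markers (1711) and keratocyte markers (6776). The other arrays did not continue this order. Replicate 4 had the highest sums (5057 and 32702) with a Gjb5 signal of 152.7. Replicate 2 had the lowest Gjb5 signal, 95.6, with sums of 3798 and 13999. The part of these cell types in the Gjb5 values was not tested. Without PN56 Klf5CN replicate 3 the log2 difference was -0.88 (adjusted p = 0.00282). The adjusted p was above 0.05 without PN56 WT replicate 1 (0.0634), without PN56 Klf5CN replicate 1 (0.0622), without PN56 Klf5CN replicate 2 (0.0593) and in a fit of the PN56 arrays alone (0.0599), and below it under the other 22 alternatives. The difference between the PN56 and the PN11 effect was 0.78 (95% interval 0.16 to 1.4) with an adjusted p of 0.336, so a smaller effect in the adult was not shown.

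Gjb5 rose between PN11 and PN56 in both genotypes. In WT corneas it rose 2.08-fold (log2 difference 1.06, SE 0.20, adjusted p = 0.000783), and in Klf5CN corneas 3.56-fold (1.83, SE 0.20, adjusted p = 9.69e-06), where 10.2% and 10.4% of all probe sets were called higher. The WT rise lay close to the limit of 2-fold and fell short of it without PN11 WT replicate 3 (0.97, adjusted p = 0.00625). In the order of group levels PN11 Klf5CN was lowest and differed from PN11 WT, which did not differ detectably from PN56 Klf5CN (log2 step 0.34, adjusted p = 0.2), and PN56 WT was highest. In the comparison of PN56 Klf5CN with PN11 WT, 44.1% of all probe sets had an adjusted p below 0.05 with no minimum fold.

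**Figure D1:**
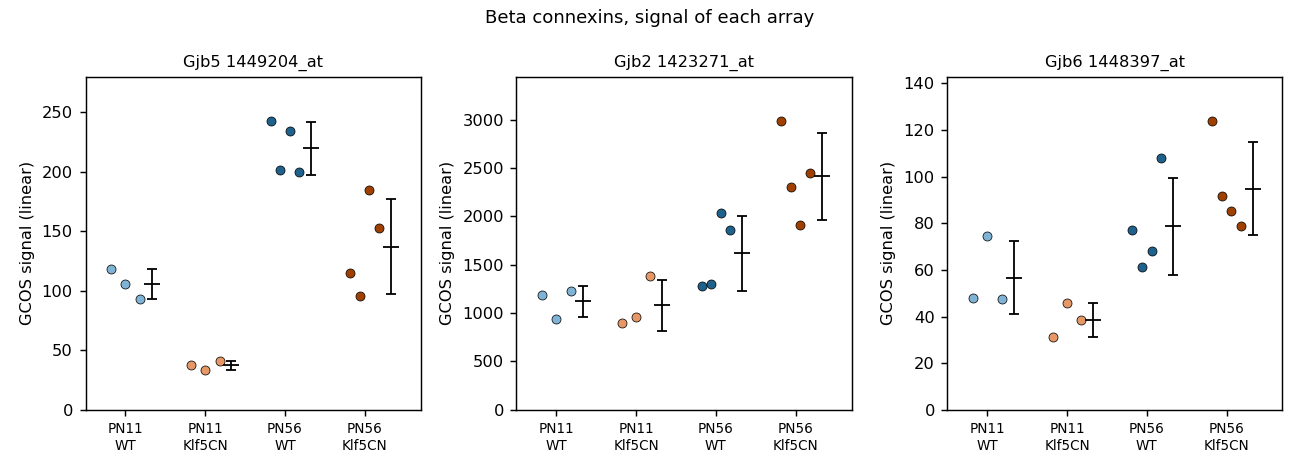
Signal of the beta connexins Gjb5, Gjb2 and Gjb6 on each of the 14 arrays (y axis, linear GCOS signal, starting at 0), by group (x axis). Points are single mice and the black bars mean ± SD. Gjb5 lay between 33.4 and 41 in PN11 Klf5CN against 92.8 to 118.5 in PN11 WT, and Gjb2 and Gjb6 overlapped between genotypes at PN56. All 3 genes were higher on every PN56 Klf5CN array than on any PN11 Klf5CN array, as were 19.7% of all probe sets.

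Of 10 marker genes of the corneal epithelium, each read by its brightest probe set, 1 was called higher in PN11 Klf5CN corneas, the adhesion molecule Epcam (log2 difference 1.19, adjusted p = 0.00813), and 0 lower, and none was called at PN56. Of their 23 probe sets, 1 was called lower at each age, a dimmer one of the metabolic enzyme Tkt (-2.11 at PN11 and -2.02 at PN56). The summed signal of the 10 genes was 44037 to 52620 in PN11 WT and 41028 to 49148 in PN11 Klf5CN corneas. At PN56 the sums were 48732 to 56908 in WT and 48770 to 85650 in Klf5CN corneas. Among all genes, 3.8% were called higher and 1.48% lower in Klf5CN corneas at PN11, and 7.1% and 1.63% at PN56. Leukocyte markers were called higher for 5 of 7 genes at each age, with sums of 1820 to 2313 in PN11 WT, 5255 to 7407 in PN11 Klf5CN, 689 to 1196 in PN56 WT and 1711 to 5057 in PN56 Klf5CN corneas. Of 7 genes listed for the stressed or wounded epithelium, S100a8 and Krt17 among them, 5 were called higher at PN11 and 4 at PN56. The keratins Krt6a and Krt6b of this list were called at neither age (-0.006 and 0.11 at PN11, 0.17 and 0.19 at PN56). Whole corneas do not show which cells gave these signals, and their part in the connexin values was not tested.

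Gjb5 lies on chromosome 4 (chr4:127354809-127358164, GRCm38.p6, minus strand). The 250 bases before its RefSeq start (chr4:127358165-127358414) are shown because Klf5 is a factor of CACCC-type and GC-rich sites and Gjb5 was the member lower in Klf5CN corneas. Capitals mark matches to CACCC or CCNCNCCC on either strand.
Gjb5: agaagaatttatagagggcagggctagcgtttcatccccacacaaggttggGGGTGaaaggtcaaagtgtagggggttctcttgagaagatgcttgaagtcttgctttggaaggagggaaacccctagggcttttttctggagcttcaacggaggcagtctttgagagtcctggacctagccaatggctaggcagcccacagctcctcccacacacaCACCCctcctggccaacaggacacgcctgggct
This window held 2 matches to CACCC and 0 to CCNCNCCC. Of 32851 RefSeq windows of the same length, 52% held CACCC and 45.9% held CCNCNCCC at least once, and the motifs can overlap each other. A match describes the letters only.

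Gjb2 had a higher mean in Klf5CN corneas at PN56 and nearly equal means at PN11. Its signal was 1186.5, 940.1 and 1230.6 in PN11 WT corneas and 899.5, 960.2 and 1380.1 in PN11 Klf5CN corneas. The adult WT arrays gave 1275.3, 1302.5, 2035.7 and 1860.1, and the adult Klf5CN arrays 2989.6, 2297.4, 1908.1 and 2449.4. The PN11 genotypes covered the same range, while at PN56 3 of 4 Klf5CN arrays were above every WT array and replicate 3 was within the WT range.

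The log2 difference of Gjb2 was -0.07 (SE 0.22, 95% interval -0.54 to 0.40, adjusted p = 0.911) at PN11 and 0.59 (SE 0.19, 95% interval 0.18 to 0.99, adjusted p = 0.049) at PN56, the latter a 1.5-fold difference and not called. The PN56 adjusted p was below 0.05 under 11 of 26 alternatives and reached 0.257 with array medians subtracted, where the log2 difference was 0.36. The effects at the 2 ages differed by 0.66 (95% interval 0.04 to 1.27) with an adjusted p of 0.453. With age, Gjb2 rose 2.25-fold in Klf5CN corneas (log2 difference 1.17, SE 0.20, adjusted p = 0.000422), and the value in WT corneas was 0.51 (SE 0.20, adjusted p = 0.057). PN56 Klf5CN was the highest of the 4 groups, 0.59 above its neighbour PN56 WT (adjusted p = 0.049). The steps from PN11 Klf5CN to PN11 WT and from there to PN56 WT had adjusted p-values of 0.911 and 0.057. PN56 WT was above PN11 Klf5CN by 0.58 (limma, adjusted p = 0.0291), short of 2-fold.

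Gjb2 (chr14:57098602-57104702, GRCm38.p6, minus strand) has a GC-rich window before its start (chr14:57104703-57104952), 69.2% G or C against 54.4% for Gjb5, 50% for Gja1 and 56.8% for Gjb6. It is shown as the connexin window richest in the searched motifs, marked in the same way.
Gjb2: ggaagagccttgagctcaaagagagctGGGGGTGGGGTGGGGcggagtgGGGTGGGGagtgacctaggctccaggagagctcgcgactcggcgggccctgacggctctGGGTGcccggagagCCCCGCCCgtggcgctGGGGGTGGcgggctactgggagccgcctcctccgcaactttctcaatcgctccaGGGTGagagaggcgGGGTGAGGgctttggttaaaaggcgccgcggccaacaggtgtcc
It held 7 matches to CCNCNCCC and 7 to CACCC, overlaps counted. The windows of Gja1 and Gjb6 held 0 and 1 matches to CACCC and none to CCNCNCCC.

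Gjb6, the neighbour of Gjb2 (chr14:57123301-57133611, GRCm38.p6, 18598 bases away), had low signals in all groups. Its signal was 48, 74.6 and 47.5 in PN11 WT and 31, 45.7 and 38.4 in PN11 Klf5CN corneas. The adult WT arrays gave 77.1, 61.2, 68.2 and 108.2, and the adult Klf5CN arrays 124.1, 91.5, 85.3 and 78.8. At PN11 all Klf5CN arrays were below all WT arrays by a narrow margin, which was true of 14% of all probe sets, and at PN56 the groups overlapped.

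No genotype difference of Gjb6 passed the test, with log2 differences of -0.55 (SE 0.26, 95% interval -1.11 to 0.02, adjusted p = 0.262) at PN11 and 0.28 (SE 0.23, 95% interval -0.20 to 0.77, adjusted p = 0.444) at PN56. Gjb6 rose 2.47-fold with age in Klf5CN corneas (log2 difference 1.30, SE 0.25, adjusted p = 0.000769). In WT corneas the value was 0.47 (SE 0.25, adjusted p = 0.141). Neighbouring groups in its order of levels, from PN11 Klf5CN through PN11 WT and PN56 WT to PN56 Klf5CN, did not differ from each other by an adjusted p below 0.05. The group means of Gjb2 had the same order.

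Gja1 (chr10:56377300-56390419, GRCm38.p6) was read by 6 probe sets that fell into 3 kinds. The 4 bright ones, 1415800_at, 1437992_x_at, 1438650_x_at and 1438945_x_at, had signals from 2104.5 to 7896.9 on all arrays. On 1415800_at the PN11 signals were 4094.1, 3949.6 and 4084.2 in WT and 3371.4, 3215.5 and 3582.1 in Klf5CN corneas. PN56 WT corneas read 4324.9, 4474.2, 4293.7 and 4479, and PN56 Klf5CN corneas 3757.8, 3659.6, 4512.1 and 3984.6.

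None of the 4 bright probe sets was called in any comparison. Their Klf5CN differences ranged from -0.26 to -0.19 (log2, adjusted p 0.187 to 0.634) at PN11 and from -0.15 to 0.14 (adjusted p 0.308 to 0.817) at PN56, and none of the 8 intervals of 95% went below -0.60 or above 0.48. At PN11 all Klf5CN arrays of 1415800_at were below all WT arrays, as on 14% of all probe sets, with a fitted difference of 1.19-fold. With age, the 4 probe sets differed by 0.12 to 0.38 in WT corneas (adjusted p 0.1 to 0.413) and by 0.23 to 0.70 in Klf5CN corneas, where 3 of them had an adjusted p below 0.05 without reaching 2-fold, while 40.2% of all probe sets had such an adjusted p with no minimum fold. Without the arrays of high control ratio, the WT values of 1437992_x_at (0.30) and 1438650_x_at (0.38) also had adjusted p-values below 0.05 (0.00599 and 0.00498), as they did in a fit of the WT arrays alone (0.00795 and 0.00654). The 3 bright probe sets with the suffix _x_at, which marks probes that may bind more than one transcript, had their highest signal on PN56 Klf5CN replicate 4, the array with an Actb ratio of 1.4. Without that array the sign of their PN56 difference turned, to -0.13, -0.06 and -0.02.

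Probe set 1415801_at of Gja1 rose steeply with age. Its signal was 72.8, 50.5 and 75.9 in PN11 WT and 56.1, 43.7 and 1.7 in PN11 Klf5CN corneas. PN56 WT corneas read 921.2, 1240.9, 857.9 and 862.5, and PN56 Klf5CN corneas 679.8, 660.5, 1053.1 and 359.5. In both genotypes the lowest PN56 signal, 359.5 in Klf5CN and 857.9 in WT corneas, was far above the highest PN11 signal of 75.9. Every PN56 array was above every PN11 array on 26.7% of all probe sets in WT and 19.7% in Klf5CN corneas.

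In WT corneas 1415801_at rose 14.7-fold (log2 difference 3.88, SE 0.47, adjusted p = 1.35e-05) and in Klf5CN corneas 22.1-fold (4.47, SE 0.47, adjusted p = 5.41e-06). Signals under 10 were set to 10 before taking logs, which applied to PN11 Klf5CN replicate 3, and without that array the Klf5CN value was 3.7 (adjusted p = 2.49e-06). Between genotypes it differed by -1.17 (SE 0.50, adjusted p = 0.2) at PN11 and -0.58 (SE 0.43, adjusted p = 0.403) at PN56, and the PN11 value was -0.40 without the same array. With the Actb ratio as a covariate these genotype differences were -0.39 and -0.16, and the rises with age were 4.12 in WT and 4.34 in Klf5CN corneas. In each Klf5CN group its lowest signal, 1.7 and 359.5, was on the array with the high control ratio. The WT ages differed in the Actb ratio by 0.16 (exact permutation test, two-sided, p = 0.0571, the smallest that 3 against 4 allows) and in the Gapdh ratio by less than 0.01. Where on the Gja1 transcript each probe set lies was not analysed here.

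**Figure D2:**
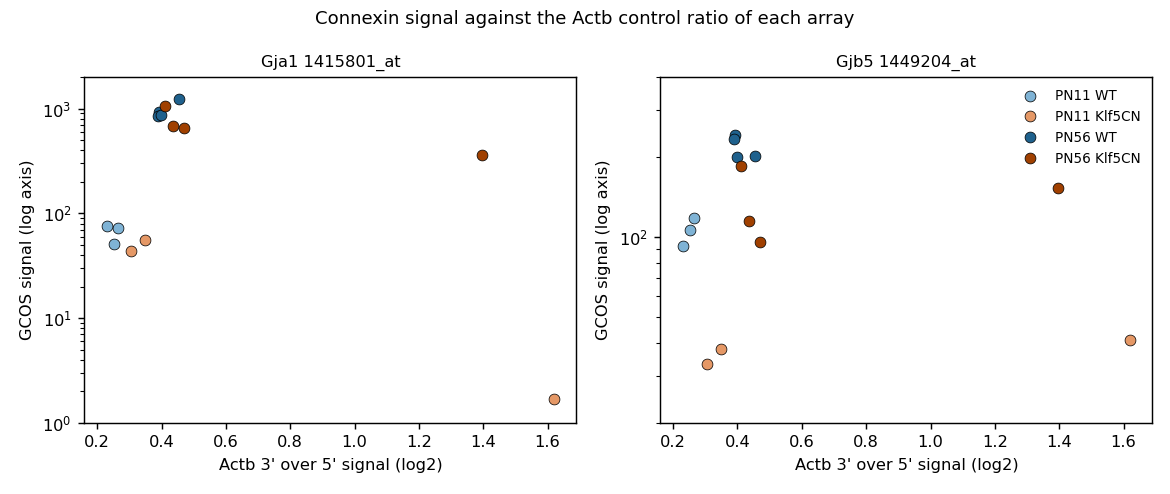
Signal of Gja1 probe set 1415801_at (left) and of Gjb5 (right), both on log y axes, against the log2 ratio of 3' to 5' Actb control signal of the same array (x axis), with 1 point per array coloured by group. The arrays at 1.4 and 1.62 have the lowest 1415801_at signal of their groups, 359.5 and 1.7, whereas Gjb5 on the same arrays, 152.7 and 41, lies within or at the top of its group.

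Probe set 1438973_x_at of Gja1 fell with age in WT corneas. Its signal was 145.4, 190.9 and 193.1 in PN11 WT and 163.5, 167.3 and 170.4 in PN11 Klf5CN corneas. PN56 WT corneas read 74.8, 27, 20.9 and 9, and PN56 Klf5CN corneas 91.5, 94, 75.2 and 113.5. In each genotype all PN56 arrays were below all PN11 arrays, as on 27.4% of probe sets in WT and 19.2% in Klf5CN corneas, and at PN56 the Klf5CN arrays were all above the WT arrays, which held for 9.68% of all probe sets.

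In WT corneas it fell 6.87-fold (log2 difference -2.78, SE 0.45, adjusted p = 0.00017), where 12.3% of all probe sets were called lower. The WT fall was -2.15 with all signals under 32 set to 32 and -2.13 with 16 added to each signal, and 1 of the 4 PN56 WT signals was under the floor of 10. At PN56 it was 3.63-fold higher in Klf5CN than in WT corneas (1.86, SE 0.41, adjusted p = 0.00727), the only member called between genotypes at that age and 1 of the 5.67% of probe sets called higher. That call was lost in a fit of the PN56 arrays alone (adjusted p = 0.0588), and the value was 1.23 with all signals under 32 set to 32, since 3 of the 4 WT signals were lower than that. At PN11 it differed by -0.07 (SE 0.48, adjusted p = 0.966), and its value with age in Klf5CN corneas was -0.85 (SE 0.45, adjusted p = 0.143).

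Keratocyte and leukocyte markers moved beside 1438973_x_at in WT corneas with age and between the PN56 genotypes. All 8 keratocyte genes tested, Kera and Lum among them, were called lower with age in WT corneas, 7 of 8 in Klf5CN corneas, and 4 of 8 were called higher in PN56 Klf5CN than in PN56 WT corneas, while at PN11 1 of 8 was called higher in Klf5CN corneas. Of 7 leukocyte genes, 4 were called lower and 1 higher with age in WT corneas, beside the 5 called higher in PN56 Klf5CN corneas. At PN11, 5 of the 7 were also called higher in Klf5CN corneas, where 1438973_x_at differed by only -0.07. The summed keratocyte signal was 39052 to 44062 in PN11 WT, 38678 to 43709 in PN11 Klf5CN, 6109 to 9950 in PN56 WT and 6776 to 32702 in PN56 Klf5CN corneas. Within the PN56 Klf5CN group, 1438973_x_at and both marker sums were lowest on replicate 3 and highest on replicate 4. Replicates 1 and 2 went the other way, with signals of 91.5 and 94. Their leukocyte sums were 4673 and 3798 and their keratocyte sums 19994 and 13999. Of 4 tested genes of the corneal endothelium, 1 was called lower in PN56 Klf5CN corneas and none at PN11. With age, 1 was called higher and 1 lower in WT corneas, and 3 lower in Klf5CN corneas. Their summed signal was 7045 to 8837 in PN11 WT and 8025 to 10806 in PN11 Klf5CN corneas. At PN56 it was 4918 to 5923 in WT and 2523 to 4007 in Klf5CN corneas. The part of these cell types in the values of 1438973_x_at was not tested.

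**Figure D3:**
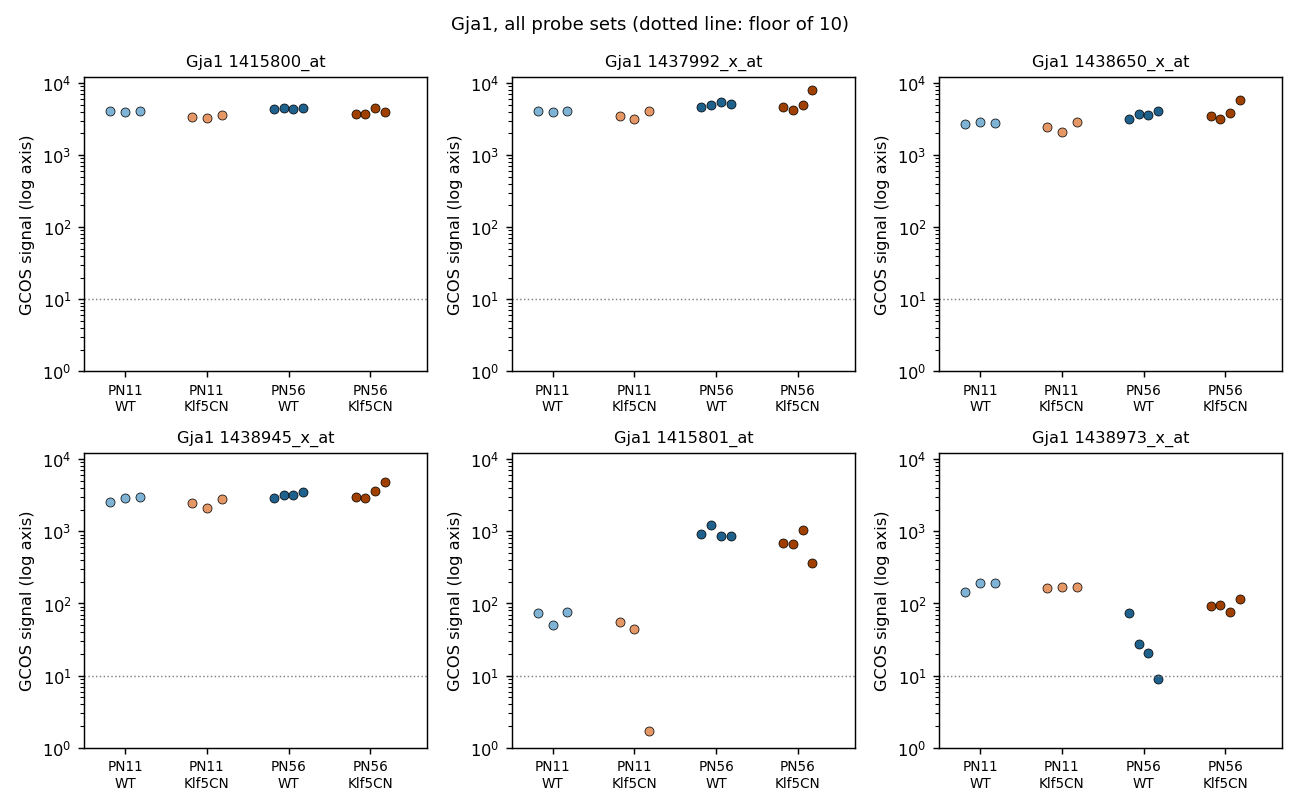
Signal of the 6 Gja1 probe sets on each array (y axis, log scale) by group (x axis), 1 point per mouse, with a dotted line at the floor of 10. The 4 bright probe sets are nearly level over the groups, 1415801_at is at 359.5 or more at PN56 and at 75.9 or less at PN11, and 1438973_x_at is lowest in PN56 WT, at 9 to 74.8.

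The Gja1 probe sets thus gave different answers on the same RNA. The bright ones were not called in any comparison, whereas in WT corneas 1415801_at rose and 1438973_x_at fell with age. Probe set 1438973_x_at also carries the suffix _x_at. Whether 1415801_at and 1438973_x_at read Gja1 alone was not tested, so no conclusion is drawn for the gene as a whole. Over the 14 arrays the 3 bright probe sets ending in _x_at correlated with each other at Pearson r from 0.958 to 0.98, whereas 1415801_at and 1438973_x_at correlated at -0.72 (log2 signal, a description across arrays that include the group differences). The mean of all 6 gave a Gja1 log2 difference of 0.35 with age in WT corneas, between values of 3.88 and -2.78. Of the members, Gjb5 correlated most with Gja1 probe set 1415800_at, at r = 0.92.

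Counted over all 9 member probe sets, limma called 0 higher and 1 lower (Gjb5) in Klf5CN corneas at PN11, against 2.77% and 1.16% of all tested probe sets. At PN56 it called 1 higher (Gja1 1438973_x_at) and 0 lower, against 5.67% and 1.44%. With age it called 2 higher (Gja1 1415801_at and Gjb5) and 1 lower (1438973_x_at) in WT corneas, against 10.2% and 12.3% of all probe sets. In Klf5CN corneas it called 4 higher (1415801_at, Gjb2, Gjb5 and Gjb6) and 0 lower, against 10.4% and 10.6%. At an unadjusted p below 0.05 the counts were 0 and 3 at PN11, 2 and 1 at PN56, 4 and 1 with age in WT and 8 and 0 in Klf5CN corneas. The shares of all probe sets at that threshold were 10.7% higher and 9.49% lower at PN11, 16.7% and 13% at PN56, 24.7% and 25.1% with age in WT and 25.7% and 23% in Klf5CN corneas. A rank-based rule like that of the study's methods made the same numbers of calls among the members as limma in each. That rule called 2.5% of all 45101 probe sets higher and 0.978% lower at PN11, 3.56% and 0.851% at PN56, 6.42% and 7.48% with age in WT and 5.68% and 6.02% in Klf5CN corneas. The difference between the ages in the Klf5CN effect was called for none of the 9, against 0.211% of all probe sets called higher and 0.187% lower. At an unadjusted p below 0.05 there were 4, all with the more positive log2 difference at PN56, against 5.61% of all probe sets in that direction and 4.82% in the other. A more positive value need not be a larger effect, as for Gjb5 the log2 differences were -1.50 at PN11 and -0.72 at PN56. These comparisons share arrays with each other and are not independent.

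Over the 9 probe sets the log2 differences ranged from -1.50 to 1.86 between genotypes, while the median of all 29416 probe sets was 0 at PN11 and 0.02 at PN56. With age the medians of all probe sets were 0.00472 in WT and 0.06 in Klf5CN corneas. In both genotypes 8 of the 9 connexin probe sets had a positive value with age, all but Gja1 1438973_x_at. Of the 9, 6 read the same gene, Gja1, so the count is not one of independent members.

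**Figure D4:**
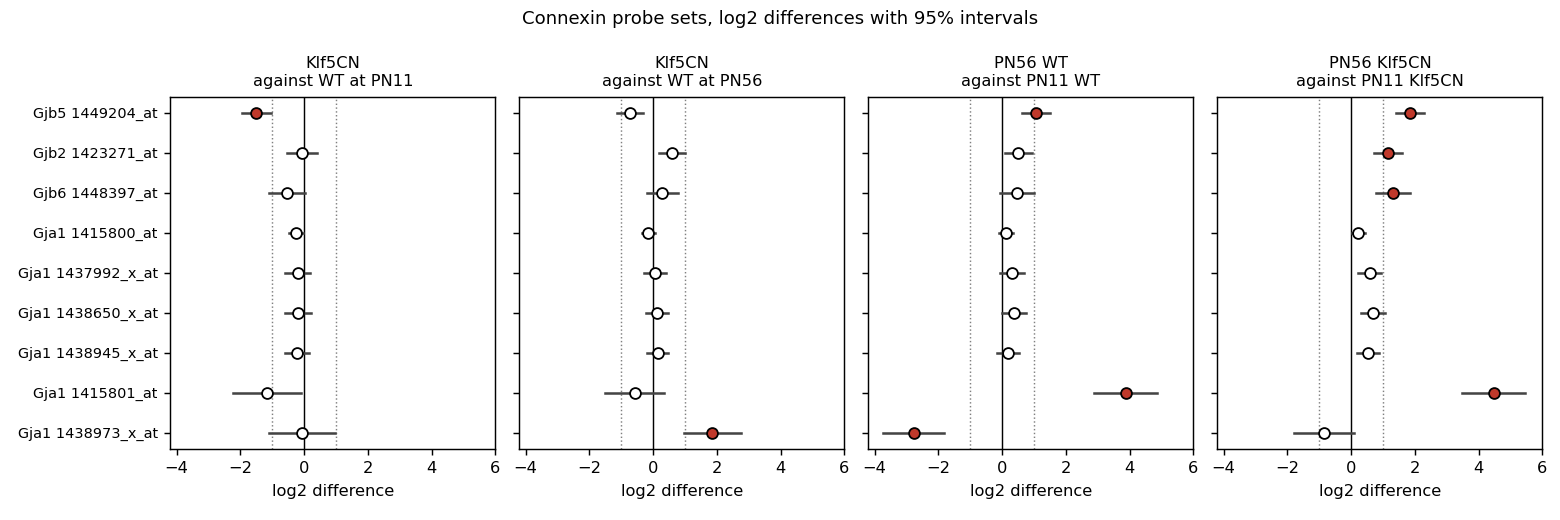
Log2 difference of each connexin probe set (x axis) in 4 comparisons, with 95% intervals, filled where called (adjusted p below 0.05 and more than 2-fold), and dotted lines at 2-fold. Gjb5 is the filled point at PN11 (-1.50), Gja1 1438973_x_at at PN56 (1.86), and the panels on age show 4 filled points to the right in Klf5CN corneas against 2 in WT corneas.

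Of 16 further connexin genes, 10 had a probe set of their own and 2, Gja4 and Gjc1, passed the filter. Gja4, a connexin of blood vessel endothelium, had signals of 110.1 to 130.2 in PN11 WT, 54.4 to 92.7 in PN11 Klf5CN, 20.6 to 29.9 in PN56 WT and 25.8 to 28.5 in PN56 Klf5CN corneas, where it was called Present on 2 and 1 of 4 arrays. It fell with age in WT (log2 difference -2.35, SE 0.21, adjusted p = 9.1e-07) and in Klf5CN corneas (-1.42, SE 0.21, adjusted p = 0.000101), while its genotype differences of -0.75 (adjusted p = 0.0631) and 0.18 (adjusted p = 0.57) were not called. Markers of blood vessel endothelium were called lower with age for 7 of 7 genes in WT and 6 of 7 in Klf5CN corneas, against 15.6% and 13.4% of all genes.

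Gjc1, a connexin of smooth muscle and heart, had signals of 105.2 to 127.7 in PN11 WT and 201.3 to 241.7 in PN11 Klf5CN corneas on its brighter probe set, and 5.2 to 25.2 and 12.8 to 32.5 at PN56. It fell with age in WT (adjusted p = 1.05e-05) and in Klf5CN corneas (adjusted p = 5.02e-06), but it was called Present on 0 of 4 PN56 WT and 2 of 4 PN56 Klf5CN arrays, so no fold is given. Its other probe set was called Present on no PN56 array. On the brighter probe set all PN11 Klf5CN arrays were above all PN11 WT arrays, as on 15.5% of all probe sets. The difference of 0.97 (SE 0.36, adjusted p = 0.143) was not called. Connexin genes thus went in opposite directions with age, Gjb5 up and Gja4 and Gjc1 down in both genotypes. The other 8 genes with a probe set were below the filter.

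Panx1, a pannexin whose channels release ATP from single cells, was the 1 pannexin of 3 that passed the filter. Its signal was 81.2 to 100.8 in PN11 WT, 114.1 to 149.1 in PN11 Klf5CN, 85.4 to 109.2 in PN56 WT and 152.4 to 203.9 in PN56 Klf5CN corneas, with no overlap between genotypes at either age, as on 15.5% of all probe sets at PN11 and 9.68% at PN56 in this direction. The log2 differences were 0.46 (SE 0.17, adjusted p = 0.135) at PN11 and 0.87 (SE 0.15, adjusted p = 0.00137) at PN56, both short of 2-fold.

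Of 22 genes whose proteins bind connexins or control their assembly and turnover, 18 were tested, each read by its brightest probe set. Of all genes, 3.8% were called higher and 1.48% lower at PN11, 7.1% and 1.63% at PN56, 4.37% and 15.6% with age in WT and 4.8% and 13.4% in Klf5CN corneas. None of the 18 was called at PN11 by limma (3 higher and 1 lower at an unadjusted p below 0.05). At PN56 1 was called higher, Prkca, a protein kinase C that phosphorylates Cx43, by 1.16 (log2, SE 0.16, adjusted p = 0.000303), whose other probe sets gave 0.37 and 0.58 and were not called, and with age in WT corneas its probe sets disagreed in sign (-0.95 against 1.89 and 1.17). Tjp1, the scaffold ZO-1 that binds the tail of Cx43, rose with age in WT corneas by 1.10 (SE 0.13, adjusted p = 1.37e-05), and its value was -0.49 (adjusted p = 0.0143) in PN56 Klf5CN corneas, short of 2-fold. Dbn1, the actin-binding protein drebrin, and Ccn3, a secreted matrix protein that binds Cx43, were called lower with age in WT corneas (-2.13 and -2.46) and in Klf5CN corneas (-1.42 and -3.02), although the second Dbn1 probe set was not called in either (-0.91 and -0.37). Over all 43 tested probe sets of these genes the counts with age were larger, with 10 called higher and 3 lower in each genotype, and between genotypes they were 0 at PN11 and 1 higher at PN56.

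Genes whose signal was most like that of each connexin over the 14 arrays are given as a description, with no test, since all share the group differences. Closest to Gjb5 were Evpl (Pearson r = 0.975), which encodes the cornified envelope protein envoplakin, Mst1 (0.973) and Rassf7 (0.97), and within groups, after subtracting group means, their r was 0.753, 0.771 and 0.676. Evpl had group means of 10.7 in PN11 WT, 9.78 in PN11 Klf5CN, 11.3 in PN56 WT and 10.9 in PN56 Klf5CN corneas (log2), the same order of groups as Gjb5. Closest to Gjb6 was Krt13 (0.946), a keratin of stratified mucosal epithelia, with means of 9.82, 8.47, 10.5 and 11.4 in the same groups, followed by Il20ra (0.902) and Pik3cb (0.896). Closest to Gjb2 were Erp44 (0.951), Igsf3 (0.927) and Pigq (0.924).

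For Gja1 the likest genes differed between probe sets. The brightest, 1437992_x_at, was most like Cdipt (0.969), Oaz1 (0.96) and Tgfbi (0.955). After subtracting group means these r stayed as high, at 0.965, 0.982 and 0.93. Its highest signal, 7896.9, was on PN56 Klf5CN replicate 4, an array of high control ratio. Probe set 1415801_at was most like Rnf39 (0.987), Serpinb8 (0.986) and Slc37a1 (0.981), with 0.892, 0.881 and 0.816 within groups. Probe set 1438973_x_at was most like Ypel1 (0.947), Gli3 (0.93) and Calcrl (0.923), with 0.746, 0.684 and 0.715 within groups. No gene was shared between these lists.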

How the data were processed

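RNA of 14 corneal samples (total RNA from both corneas of 1 mouse each) had been labelled by the authors with a 3' in vitro transcription kit and hybridised to Affymetrix whole-genome mouse arrays, 1 per mouse. The deposited values are signal intensity per probe set from GCOS 1.4, which the authors had scaled to a 2% trimmed mean of 150 on each array, with Present calls. The intensity tables deposited for samples and series held the same 631414 signals. Columns that hold the authors' own pairwise comparisons were not used. Of 45101 probe sets, 34958 had 1 gene symbol in the platform annotation, 932 several and 9211 none. Groups and replicate numbers came from the sample titles and genotype and stage labels. The number of arrays limits the precision of each value.

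Signals under 10 were set to 10 and log2 values were taken. The 29416 probe sets (13660 genes) with a signal above 20 on at least 3 arrays were fitted with limma 3.58.1 (R 4.3.3; lmFit, eBayes with trend, two-sided), all 4 groups together, and p-values were adjusted by Benjamini-Hochberg over all tested probe sets. A call needed an adjusted p below 0.05 and more than 2-fold, without the fold for the difference between ages. A gene was read by its brightest tested probe set of 1 symbol. Fits were tested on simulated data. Promoter windows and positions came from RefSeq (GRCm38.p6), and matched all 4 members. Alternatives were other scalings, floors, filters, fits and thresholds, an Actb covariate, a rank-based rule after the methods of the study without its GCOS pair calls, and each array left out. Genes named besides the members were those called in their list, or the 2 with the largest difference where none was. For the marker lists they were examples of called genes, with the uncalled Krt6a and Krt6b added. For likeness they were the 3 with the highest Pearson correlation. The members and lists were chosen with earlier results of these data known.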

Additional observations from a re-analysis of the deposited data

Results flagged for a closer look

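Among the values behind the connexin results, 2 stood far from the others of their group, both on PN56 Klf5CN replicate 4. Its Actb 3' over 5' ratio was 1.4 (log2), and the gap to the nearest of the other 3 arrays was 0.94 of the group's range. Its Gapdh ratio was 0.651, with a gap of 0.906 of the range. In all, 22 groups of 4 were examined, of which chance marks about 1 in 20. No connexin signal itself stood apart in this way, although the 3 bright Gja1 probe sets ending in _x_at had their highest signal and 1415801_at its lowest PN56 Klf5CN signal on this array. PN11 groups hold 3 arrays and were not examined in this way, which includes PN11 Klf5CN replicate 3 with a Gapdh ratio of 6.18. The part of RNA length in these connexin values was not tested.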

How the results depend on the processing

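Over 26 alternatives the called connexin differences kept their direction, 231 values stayed called and 3 did not, and of the uncalled ones 895 stayed uncalled, 6 became calls and 17 changed sign. Leaving out an array outside the groups compared could not change the difference itself, and dropping the minimum fold could not remove a call. With no minimum fold, the member probe sets called were 2 higher and 1 lower at PN56 and 7 higher with age in Klf5CN corneas, and the genes 1 higher and 1 lower at PN56. With only the groups compared in the fit, 0 probe sets were higher at PN56 (Gja1 1438973_x_at, adjusted p = 0.0588). With log2 of signal plus 16, 1 probe set and 0 genes rose with age in WT corneas (Gjb5 0.954). Counting any probe set of a gene gave 1 gene higher at PN56 and 2 higher and 1 lower with age in WT corneas. Leaving out 1 array at a time gave 1 to 2 probe sets and 0 to 1 genes higher with age in WT corneas, both lowest without PN11 WT replicate 3 (Gjb5 0.966), and 0 to 1 for the difference between ages (Gja1 1438973_x_at 2.45 without PN56 WT replicate 1). The rank-based rule changed no count.

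Signs turned only for uncalled values. At PN56 they were, for Gja1 1437992_x_at, -0.0521 (quantile normalization), -0.157 (array medians subtracted), -0.052 (Actb covariate) and -0.127 (without the arrays of high control ratio, an alternative added after seeing the data), for 1438650_x_at -0.0993 (medians) and -0.0621 (those arrays), and for 1438945_x_at -0.0899 (medians) and -0.02 (those arrays). Subtracting medians moved every PN56 difference by -0.226. The difference between ages of 1415800_at was -0.0216 with medians subtracted. With 1 array left out, the ranges were -0.258 to 0.0508 (Gjb2) and -0.201 to 0.0038 (1438973_x_at) at PN11, -0.127 to 0.17, -0.0621 to 0.232 and -0.02 to 0.226 for the 3 _x_at probe sets at PN56, and -0.178 to 1.07 for the difference between ages of 1415801_at (0.591 with all arrays, lowest without PN11 Klf5CN replicate 3). The cause was not tested. Arrays of the same replicate number did not deviate together (correlations from -0.195 to 0.0927). This showed no pairing of the mice by number but cannot exclude one with so few arrays. The paper states that WT and Klf5CN mice were littermates, and the sample titles name no litter. With the replicate block the counts of calls were unchanged (1 member probe set lower at PN11, 1 higher at PN56, 2 and 4 higher with age). Signals near the floor of 10, as on Gja1 1438973_x_at in PN56 WT, limit the size of a fold change.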
